A study of Homo sapiens with 9 samples.

Results

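The 9 genes described here are long-known transcriptional targets of the tumour suppressor p53: CDKN1A, MDM2, BAX, BBC3, GDF15, SESN1, RRM2B, FAS and TP53I3. They were taken by symbol from the 19969 gene symbols of the count table, and all 9 were found. The counts come from HEK293T cells, a human embryonic kidney line that carries the SV40 large T antigen, in a study that aims to edit m6A, the methylation of adenosine in RNA, under control of red and far-red light. Of 9 libraries depleted of ribosomal RNA, 6 came from cells given the FHY1-M3 construct, with 2 libraries each for a guide RNA against ACTB, a con guide and a non-target guide, and 3 are labelled input. In the table the con columns are named con_ACTB_sgRNA. The labels do not give the light exposure of any culture or say which RNA fraction the FHY1-M3 libraries hold. The sample titles do not say whether the input cells held the construct as well. Below, "with the construct" stands for the FHY1-M3 libraries. All groups share the large T antigen background, and no culture without it is among the samples. Nothing states that replicates are separate cultures. The p-values therefore measure only how far libraries differ, which may be technical.

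p53 is a transcription factor that is held at a low level by the ubiquitin ligase MDM2 and its partner MDM4, and that accumulates after DNA damage and other stresses. It then switches on genes that stop the cell cycle (CDKN1A), start apoptosis (BAX, BBC3, FAS), supply nucleotides for repair (RRM2B) and act on metabolism and redox state (SESN1, TP53I3), and MDM2 itself, which closes a feedback loop. Large T antigen binds p53 and blocks its activity as a transcription factor, so HEK293T cells are known for a muted p53 response.

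Each library held 2900021 to 3802681 counts with the FHY1-M3 construct and 350413 to 643954 in the inputs, so the input values are the less precise ones. Levels are given in CPM, the counts scaled to a common library total, after TMM scaling, a scaling that lets libraries of different makeup be compared. A single count was worth 0.26 to 0.342 CPM in the FHY1-M3 libraries and 1.63 to 2.89 CPM in the inputs. Mitochondrial mRNAs took 0.563% to 0.639% of the counts in the FHY1-M3 libraries and 7.52% to 7.80% in the inputs. Of 9 genes listed as markers of HEK293 cells, 8 had counts in every library, and the exception was SOX11. The summed level was 1149 to 1356 CPM with the construct and 1142 to 1323 CPM in the inputs. Most of that sum was VIM, at 683 to 852 CPM over the 9 libraries, while PAX2 was at 3.76 to 19.5 CPM. Markers of other cell types (13 genes) summed to 4.97 to 18.2 CPM and 8.67 to 14.6 CPM. Of these, PTPRC, CD3E, CDH5 and COL1A2 were at 0 in all 9 libraries. Only CDH1 had counts in every library, with a level between 0.553 and 6.83 CPM. EPCAM reached 1.37 to 4.68 CPM with the construct, while every input held 0 counts of it.

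Promoter sequences are shown because of MDM2, the target gene with the clearest difference between libraries. Its upstream promoter window lacks a match to the p53 element, and its downstream window holds a match. A count per gene adds up transcripts from both promoters. The windows, from RefSeq (GRCh38.p14), run from 250 bases before to 50 bases after a transcription start. Of the 9 genes 8 had at least 1 window, 15 in all; RRM2B had none. Each was searched on both strands for the p53 consensus response element, a 20-base stretch that reads the same on either strand, with no spacer and up to 2 mismatches. A match was found in 228 of 35116 windows of the table (0.649%), and in 3 of the 15 windows of the target genes, which hold 2 elements, since a pair of overlapping MDM2 windows share 1 and FAS has the other. With up to 3 mismatches, where 5.2% of all windows match, GDF15 and SESN1 had a match as well. The best stretch of each of these genes is given on its coding strand with the bases that fit the consensus in capitals.
MDM2: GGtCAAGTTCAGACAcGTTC
FAS: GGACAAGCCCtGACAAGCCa
SESN1: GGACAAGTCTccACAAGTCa
GDF15: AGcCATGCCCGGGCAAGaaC
They lie at chr12:68808923-68808942 for MDM2, chr10:88991309-88991328 for FAS, chr6:109009018-109009037 (minus strand) for SESN1 and chr19:18386186-18386205 for GDF15. The MDM2 element sits at positions -94 to -75 from the start of the downstream promoter. The whole downstream and upstream windows of MDM2 follow, both on the plus strand, with the best match in capitals where there is one. Only the best stretch of each window was kept. The stretch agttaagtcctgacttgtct in the downstream window also lies within 3 mismatches and stays in lower case.
MDM2 downstream promoter, chr12:68808767-68809066: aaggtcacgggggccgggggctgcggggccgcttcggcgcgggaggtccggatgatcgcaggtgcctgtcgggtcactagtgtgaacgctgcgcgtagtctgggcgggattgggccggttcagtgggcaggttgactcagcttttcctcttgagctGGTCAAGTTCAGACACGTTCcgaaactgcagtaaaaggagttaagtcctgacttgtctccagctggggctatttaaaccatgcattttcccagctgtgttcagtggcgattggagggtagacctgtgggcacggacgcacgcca
MDM2 upstream promoter, chr12:68807922-68808221: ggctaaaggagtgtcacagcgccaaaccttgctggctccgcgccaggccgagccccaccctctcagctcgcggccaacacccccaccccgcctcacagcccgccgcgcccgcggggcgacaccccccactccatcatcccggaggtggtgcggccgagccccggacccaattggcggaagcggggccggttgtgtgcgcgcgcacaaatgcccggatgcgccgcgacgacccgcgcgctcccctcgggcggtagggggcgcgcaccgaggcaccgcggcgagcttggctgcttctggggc
The best stretch of the upstream window had 5 mismatches. No window of CDKN1A, BAX, BBC3 or TP53I3 matched at either setting, which says only that these letters are not in these windows.

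The FHY1-M3 libraries (n = 6) were compared with the inputs (n = 3) to see how the p53 targets differ between these kinds of library. Rose and fell mean higher and lower in the FHY1-M3 libraries than in the inputs, and an effect of the construct itself was not tested. MDM2, the p53 ubiquitin ligase (chromosome 12, 68808172 to 68850686, GRCh38.p14), fell to 0.504 of its input level, and RRM2B, the p53-inducible small subunit of ribonucleotide reductase, fell as well. CDKN1A, which encodes the cell cycle inhibitor p21 and is the classic readout of p53 activity, averaged 57.8 ± 8 CPM (SD, n = 6) with the construct and 51.5 ± 10.7 CPM (SD, n = 3) in the inputs and did not pass the test. In the edgeR quasi-likelihood test 2 of the 9 genes were lower and 0 higher at an adjusted p under 0.05, while 8.60% of 13411 genes tested were lower and 11.4% higher. DESeq2 gave the same 2 and 0, and at an unadjusted p under 0.05 there were 2 lower and 1 higher. The median log2 difference was -0.13 over the 9 genes and 0.04 over all genes tested. Only 8% of simulated 2-fold changes against input were recovered, so genes without a call may still differ. In bulk RNA such as this, fewer cells with a transcript and less of it per cell cannot be told apart. The RNA fraction of the FHY1-M3 libraries is not given either, so a lower value need not mean less transcript in the cells. Depth, the share of mitochondrial mRNAs and the kind of library differ between these groups too, and their part in the differences below was not tested.

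**Figure D1:**
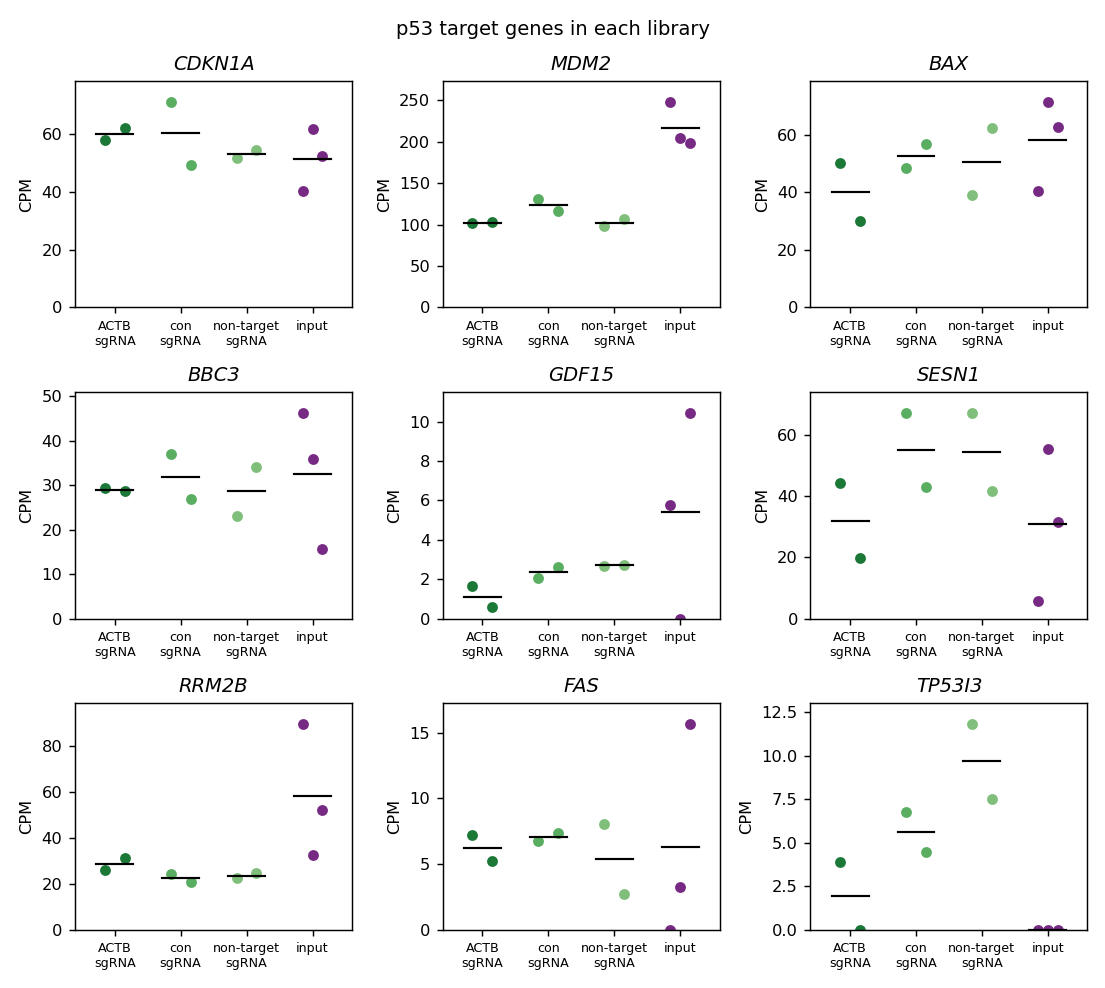
Level in CPM (vertical axis) of each p53 target gene in every library, grouped by guide and input (horizontal axis); points are libraries and lines are group means (n = 2 for each guide, n = 3 for input). The MDM2 and RRM2B points of all 6 FHY1-M3 libraries lie below those of the 3 inputs, whereas the CDKN1A points overlap.

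MDM2, the negative regulator, had the smallest adjusted p of the set. It stood at 102 and 103 CPM with the ACTB guide, 131 and 117 CPM with the con guide, 98.9 and 106 CPM with the non-target guide, and 249, 205 and 199 CPM in the inputs. Every FHY1-M3 library was below every input, with a wide gap between the groups. The log2 difference was -0.99 (SE 0.17, 95% interval -1.34 to -0.64, adjusted p = 5.33e-05). The call held under all 18 alternatives, with log2 values from -1.09 to -0.89.

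Among the effectors, RRM2B was at 26 and 31.2 CPM with the ACTB guide, 24.4 and 21 CPM with the con guide, 22.6 and 24.6 CPM with the non-target guide, and 89.6, 32.5 and 52.3 CPM in the inputs. The FHY1-M3 libraries lay close together, and the inputs were all above them but far apart, from 20 to 31 counts each. The log2 difference was -1.19 (SE 0.38, interval -1.96 to -0.42, adjusted p = 0.0226). It was -0.74 without input replicate 1 and no longer passed (adjusted p = 0.234), and leaving out con sgRNA replicate 2 (0.0589) or ACTB sgRNA replicate 1 (0.0561) ended the call as well. Libraries of the 2 groups did not overlap for MDM2 and RRM2B, both lower, as for 8.51% of all genes tested, and for 0 target genes in the higher direction, against 14.9% of all.

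For CDKN1A (chromosome 6, 36676463 to 36687332) the libraries read 58 and 62.2 CPM with the ACTB guide, 71.2 and 49.3 CPM with con, 51.6 and 54.7 CPM with non-target, and 40.5, 61.8 and 52.3 CPM in the inputs. The ranges overlapped, with 2 FHY1-M3 libraries above every input and 1 input below every FHY1-M3 library. Its log2 difference was 0.14 (SE 0.31, adjusted p = 0.799), and the interval of -0.48 to 0.76 leaves room for folds between 0.718 and 1.69. The fitted sign turned to -0.13 when the FHY1-M3 libraries were thinned to the input depth.

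The apoptosis genes of the set had wide intervals. BAX, which permeabilises the outer mitochondrial membrane, ranged from 30.1 to 62.2 CPM (median 49.5) in the FHY1-M3 libraries and from 40.5 to 71.5 CPM in the inputs (log2 -0.32, SE 0.32, adjusted p = 0.533). BBC3, the BH3-only protein PUMA, ranged from 23.1 to 36.9 CPM (median 29) and from 15.7 to 46.3 CPM, and its log2 difference of -0.13 (SE 0.42, adjusted p = 0.87) became 0.15 without input replicate 1. FAS, a death receptor at the cell surface, held 8 to 30 counts in the FHY1-M3 libraries and 0, 2 and 6 in the inputs. Its FHY1-M3 level corresponds to 8.35 counts over the 3 inputs, which held 8, so no difference was detectable at this depth (interval -2.31 to 2.31).

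Of the metabolic and secreted targets, SESN1, a stress-induced inhibitor of mTORC1 signalling, varied the most among well-counted members. It was at 44.2 and 19.7 CPM with the ACTB guide, 67.1 and 43 CPM with con, 67.2 and 41.7 CPM with non-target, and 5.78, 55.3 and 31.4 CPM in the inputs. Both groups spanned several-fold and overlapped (log2 0.47, SE 0.42, adjusted p = 0.476). The value was 0.039 without input replicate 1 and 1.27 without input replicate 2, with no call in either case. GDF15, a secreted stress cytokine, held 2 to 10 counts per FHY1-M3 library and 0 to 4 per input, which leaves an interval of -4.23 to 1.46.

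TP53I3, a quinone oxidoreductase also called PIG3, had no count in the inputs. It held 14 and 0 counts with the ACTB guide, 26 and 17 with con, 44 and 22 with non-target, and 0 in each input. The FHY1-M3 mean of 5.74 CPM corresponds to 7.71 counts over the 3 inputs. Against a floor of 3 counts over the inputs the FHY1-M3 mean was 2.57-fold higher. ACTB sgRNA replicate 2 held 0 counts like the inputs, so the groups overlapped, and the test did not pass (adjusted p = 0.115). Most counts in the table were even, as when each mate of a pair adds a count. Then 3 counts may stand for fewer than 3 fragments, and 2.57-fold is no firm lower bound.

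**Figure D2:**
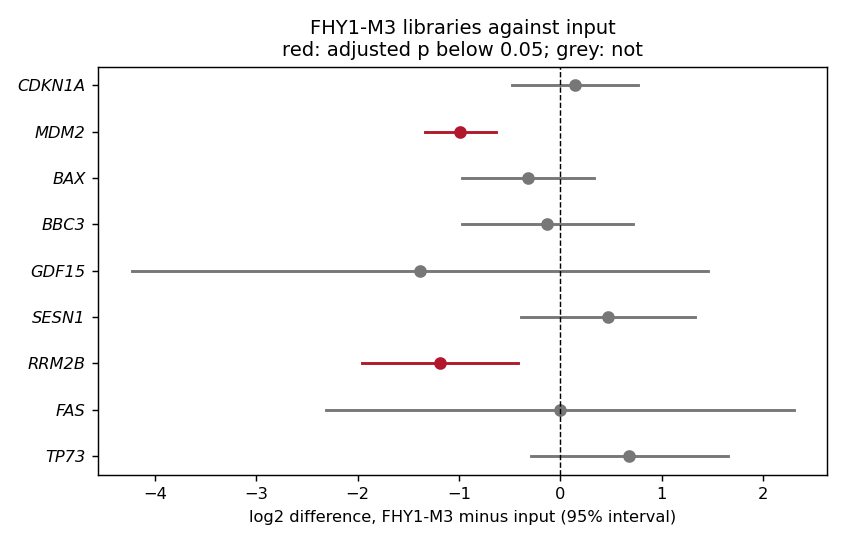
Log2 difference between the FHY1-M3 libraries (n = 6) and input (n = 3) on the horizontal axis, with its 95% interval, for 8 of the target genes and for TP73; TP53I3, at 0 in every input, is not drawn. MDM2 and RRM2B are past an adjusted p of 0.05 (red), and the intervals of GDF15 and FAS are the widest.

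The members differed in how tightly they were held among the 6 FHY1-M3 libraries. The coefficient of variation was 11% for MDM2, 13.8% for CDKN1A, 14.1% for RRM2B and 16.8% for BBC3, where counting of read pairs alone would give 7.14%, 9.84%, 15% and 13.7%. BAX was at 24.4% against 10.9% from counting. SESN1 was at 38.1% against 10.8%, and its highest library was 3.42 times its lowest. TP53I3 was at 69.4% against 31.2%.

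Summed over the 9 genes, the level was 331 ± 36.8 CPM (n = 6) with the construct and 460 ± 19.3 CPM (n = 3) in the inputs, and the groups did not overlap. Without MDM2 the sums of the other 8 genes overlapped, at 222 ± 28.1 CPM (177.6 to 264 CPM) against 243 ± 16 CPM (228 to 260.1 CPM). With MDM2 and RRM2B both left out, the sums were 197 ± 30.1 CPM and 185 ± 44.5 CPM.

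Ratios of 2 genes within a library do not depend on scaling between libraries, and the following pairs were chosen after their values were seen, so they are given without a test. There were 1.66 to 2.36 MDM2 counts per CDKN1A count in the FHY1-M3 libraries and 6.14, 3.32 and 3.8 in the inputs. The 2 ranges did not overlap, so the difference of MDM2 relative to CDKN1A does not hinge on the scaling. For RRM2B per count of RRM2, the S-phase small subunit of the same enzyme, the ratio was 0.107 to 0.158 in the FHY1-M3 libraries and 0.388, 0.168 and 0.175 in the inputs, where 1 input stood apart and the other two were just above the highest FHY1-M3 library.

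**Figure D3:**
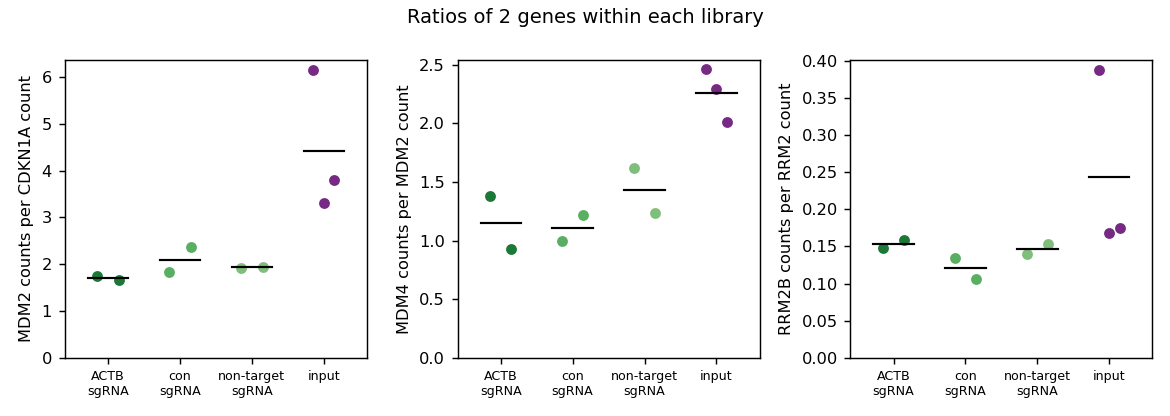
Counts of one gene per count of another (vertical axis) in each library, by group (horizontal axis), with lines at the group means. MDM2 per CDKN1A is 1.66 to 2.36 with the construct and 3.32 to 6.14 in the inputs; MDM4 per MDM2 and RRM2B per RRM2 are also lower in all 6 FHY1-M3 libraries.

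The relatives of p53 were described by level. TP73, a p53 relative that can act on the same promoters, ranged from 16.5 to 41.6 CPM with the construct and from 13 to 23.1 CPM in the inputs (log2 0.68, SE 0.48, adjusted p = 0.343). TP63, the other relative, held 30 counts in all 6 FHY1-M3 libraries together and 0 in the inputs, and was too low to test.

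Of 27 listed regulators of p53, all tested, 5 rose and 3 fell (median log2 0.12), where 11.4% of all genes tested were higher and 8.60% lower. MDM4, the MDM2 partner that masks the p53 activation domain, fell the most, from 613, 470 and 400 CPM in the inputs to between 95.4 and 160.4 CPM (median 136) in the FHY1-M3 libraries (log2 -1.89, SE 0.15, adjusted p = 8.13e-13). No FHY1-M3 library came near an input. MDM4 also fell relative to MDM2, with 0.927 to 1.62 MDM4 counts per MDM2 count with the construct and 2.01 to 2.47 in the inputs, a pair likewise chosen after its values were seen. ATM, the kinase that signals DNA breaks to p53, fell from 361, 297 and 277 CPM to between 80.7 and 130.3 CPM (log2 -1.49, SE 0.16, adjusted p = 4.19e-09). TOPORS, a ubiquitin and SUMO ligase that acts on p53, rose by 1.65 (SE 0.2), and USP10, a deubiquitinase of p53, rose by 0.85 (SE 0.16). The calls of MDM4, ATM, TOPORS and USP10 held under all 18 alternatives. The count of regulators that fell was 5 without input replicate 1, and the count that rose was 3 without input replicate 3, of 27 in each case.

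Of 38 further p53 targets 37 were tested, and 4 rose, 6 fell and 27 did not pass (median log2 -0.12), against the same 11.4% and 8.60% of all genes. SESN2, a paralogue of SESN1 that is also a target of the stress factor ATF4, rose from 127, 163 and 125.5 CPM to between 378 and 509 CPM (log2 1.62, SE 0.15, adjusted p = 5.58e-11). PPM1D, the phosphatase WIP1 that switches p53 signalling off, rose from 52, 29.3 and 13.1 CPM to between 117 and 159 CPM (log2 2.13, SE 0.3, adjusted p = 1.42e-06). AEN, an apoptosis-enhancing nuclease, rose by 0.97 (SE 0.17). CCNG1, cyclin G1, fell by 0.76 on the log2 scale (SE 0.18). These 4 calls held under all 18 alternatives, and without input replicate 3 the count of targets that fell was 3.

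Genes that p53 is known to lower through p21, mostly cell cycle genes bound by the DREAM complex, gave 4 higher and 1 lower among 22 tested of 23 listed (median log2 -0.01), beside 11.4% and 8.60% over all genes. CDC25A, a phosphatase that activates cyclin-dependent kinases, rose by 1.06 (SE 0.15, adjusted p = 3.12e-06), and the transcription factor gene MYBL2 rose by 0.68 (SE 0.12). CCNA2, cyclin A2, rose by 0.76 (SE 0.24, adjusted p = 0.0189), and CDK1, the mitotic kinase, fell by 0.69 (SE 0.24, adjusted p = 0.0347). The CCNA2 call was not reached without ACTB sgRNA replicate 2 (adjusted p = 0.0534), con sgRNA replicate 2 (0.0564), non-target sgRNA replicate 2 (0.0522) and input replicates 1 (0.11) and 2 (0.089), and was at 1.18 without input replicate 3. The CDK1 call was not reached without ACTB sgRNA replicates 1 (0.0518) and 2 (0.0833), con sgRNA replicate 2 (0.0977), non-target sgRNA replicate 1 (0.0886) and input replicates 1 (0.0893) and 2 (log2 -0.45, 0.305). The count of 4 became 2 without con, ACTB or non-target sgRNA replicate 2 or input replicate 1.

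Partners of BAX, BBC3 and FAS in apoptosis gave 4 higher and 3 lower among 25 tested of 26 listed (all genes: 11.4% and 8.60%), with a median log2 of 0.38, unchanged in the second decimal when BOK, at 0 in the inputs, was set at its bound. XIAP, an inhibitor of caspases, fell by 1.01 (SE 0.2, adjusted p = 0.000281), and MCL1, an anti-apoptotic BCL2 relative, rose by 0.76 (SE 0.17, adjusted p = 0.00169). FADD, the adaptor that FAS recruits, rose by 1.54 (SE 0.41, adjusted p = 0.00645). It was at 0, 39 and 26.1 CPM in the inputs and between 62.2 and 78.4 CPM with the construct. With a library left out the FADD value ran from 1.05 to 2.35.

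Paralogues of the target genes were compared in turn, in a list that also holds RRM1, a partner of RRM2B and not its paralogue. RRM1, the large subunit that pairs with RRM2B or RRM2, rose by 0.50 (SE 0.13, adjusted p = 0.00713), and did not pass after thinning to the input depth (adjusted p = 0.0892). RRM2 differed by -0.42 (SE 0.16, adjusted p = 0.0569), and passed without input replicate 2 (log2 -0.57, adjusted p = 0.0169). SESN3, a sestrin induced by FOXO factors, fell by 1 (SE 0.26, adjusted p = 0.00575), and was at -0.43 with no call without input replicate 3 (adjusted p = 0.333). CDKN1B, the inhibitor p27, differed by 0.80 (SE 0.36, adjusted p = 0.116), and passed without input replicate 2 (log2 1.75, adjusted p = 0.00664). CDKN1C, the inhibitor p57, held 10 counts in the inputs, all in input replicate 2, and gave no call (adjusted p = 0.695).

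Proteins bound by the T antigens were included because large T antigen is a known block on p53 in this line. The list is not limited to proteins with a part in that block. Among 11 tested of 12 listed genes 2 rose and 1 fell (median log2 0.23), and over all genes 11.4% and 8.60%. HSPA8, the constitutive HSP70 chaperone recruited by large T, rose by 0.67 (SE 0.07, adjusted p = 5.54e-10), and PPP2CA, the catalytic subunit of protein phosphatase 2A, rose by 0.69 (SE 0.18). RBL2, the RB relative p130, fell by 0.75 (SE 0.25, adjusted p = 0.0257). Its adjusted p passed the threshold no longer without ACTB sgRNA replicate 2 (0.0808), con sgRNA replicate 1 (0.0807), non-target sgRNA replicate 2 (0.0502) and input replicates 1 (0.0696) and 2 (0.135). RB1 differed by -0.66 (SE 0.31, adjusted p = 0.14), a gene named after its values were seen.

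**Figure D4:**
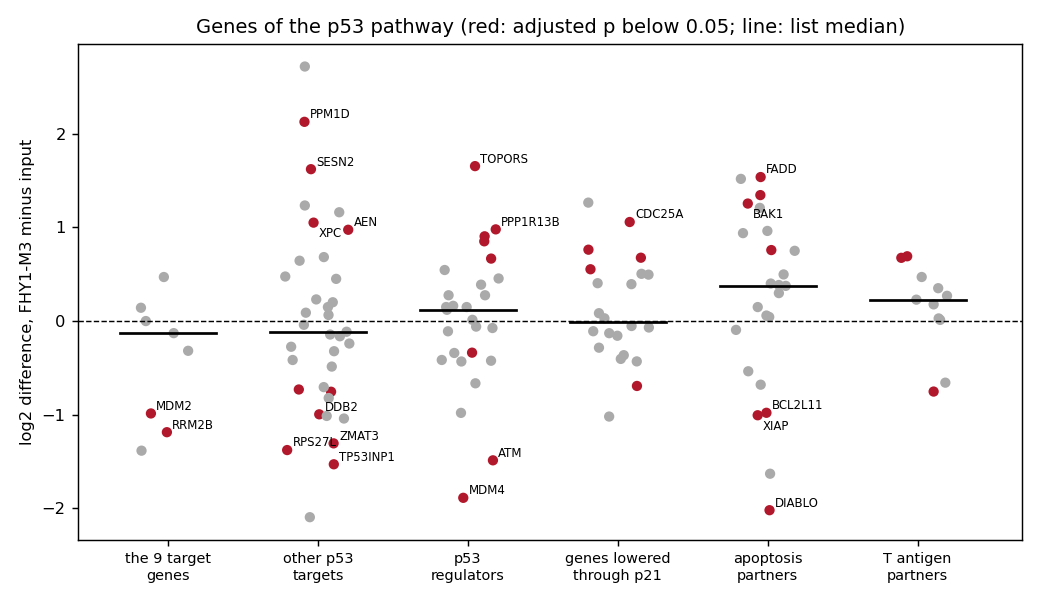
Log2 difference between FHY1-M3 and input libraries (vertical axis) for each tested gene of 6 lists (horizontal axis); red points pass an adjusted p of 0.05, names are given for most of those beyond 0.95 in either direction, lines are list medians with genes at 0 in every input placed at their bound, and such genes (TP53I3, ACER2 and BOK) are not drawn as points. MDM4 and ATM lie lowest among regulators, and PPM1D and SESN2 highest among called targets.

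The guides were compared with each other over the 6 FHY1-M3 libraries, to see whether directing the construct to ACTB altered the p53 targets. No target gene passed. A difference could be missed here, since only 12% of simulated 2-fold changes between ACTB and non-target guide were recovered. In the edgeR quasi-likelihood F test for any difference among the 3 guides, 0 of the 8 genes tested were called, 0 had an unadjusted p under 0.05, and DESeq2 called 0. Of all 12808 genes 0.289% were called and 5.96% had an unadjusted p under 0.05. GDF15 was too low to test here. Adjusted p-values of the 8 genes ran from 0.886 for SESN1 to 0.997 for BBC3 and FAS.

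Pair by pair, 0 target genes were called for ACTB against non-target, ACTB against con, and con against non-target guide, where 0.250%, 0.0312% and 0.172% of all genes were. At an unadjusted p under 0.05 the target genes gave 1, 1 and 0, and all genes 7.82%, 3.86% and 5.25%. SESN1 was the member with an unadjusted p under 0.05, in both pairs with the ACTB guide. Its log2 difference was -0.77 (SE 0.36, interval -1.50 to -0.03, adjusted p = 0.62) against non-target and -0.78 (SE 0.36, adjusted p = 1) against con. These pairs share the 2 ACTB libraries, and the lower of those, at 19.7 CPM, was below all 4 other FHY1-M3 libraries, while the other, at 44.2 CPM, lay among them. MDM2 differed by 0 (SE 0.21, interval -0.42 to 0.42) between ACTB and non-target guide, and the interval was -0.68 to 0.15 against con. For CDKN1A the difference was 0.18 (SE 0.3, interval -0.42 to 0.79). TP53I3 had the widest spread, with -2.29 (SE 1.17, interval -4.65 to 0.07) for ACTB against non-target, and rests on few counts. Of the further lists 1 gene was called in a pair, PPP2R1A, a T antigen partner that encodes the scaffold of the phosphatase PP2A, named after its values were seen. It was at 219 and 257 CPM with the ACTB guide, 206 and 190.5 CPM with con and 152 and 151 CPM with non-target, and was higher with ACTB than with non-target (log2 0.66, SE 0.16, adjusted p = 0.0479). The call held in 5 of 15 alternatives and in none of the 6 that left out a library (adjusted p from 0.114 without ACTB sgRNA replicate 1 to 0.69 without ACTB sgRNA replicate 2).

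**Figure D5:**
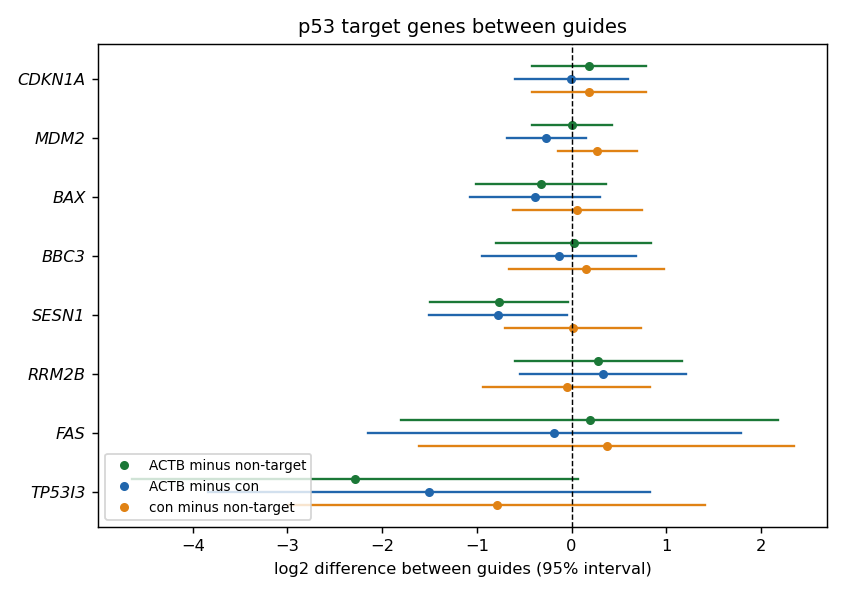
Log2 difference between pairs of guides (horizontal axis) with 95% intervals for the 8 target genes tested, from the 6 FHY1-M3 libraries (n = 2 for each guide). None passes an adjusted p of 0.05; the SESN1 intervals of both pairs with the ACTB guide end just below 0, and those of TP53I3 and FAS are widest.

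The genes whose pattern over the 9 libraries was most like that of CDKN1A were ranked by the root mean square difference of centred log2 CPM, among 8826 other genes with a mean of at least 20 CPM. The 5 nearest were BTAF1 (0.094), RAB7A (0.123), MDH2 (0.131), GNB1 (0.132) and LARP4B (0.132), where the median gene was at 0.48. Of the target genes BAX was at 0.413, BBC3 at 0.468, MDM2 at 0.602, RRM2B at 0.777 and SESN1 at 0.876. No target gene was thus among the nearest, and 5 of the 9 reached the level needed for the ranking besides CDKN1A. CDKN1A held only 14 to 38 counts per input. Its variation among the inputs, 20.7%, was below the 28.9% that counting of read pairs alone would give. The ranking therefore rests partly on sampling noise and cannot show whether the other targets follow CDKN1A.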

How the data were processed

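Whole-number read counts per gene symbol were deposited for 9 libraries and, as far as the values show, were not normalized by the authors. Per the submitters' processing notes, cutadapt 4.3, STAR 2.7.10b, deepTools and the hg38 build were used, with no role given for each. No source used here gives the counting tool, its strand setting or the annotation, so overlapping genes may share reads. Of values from 1 to 20 per library, 88.5% to 95% were even.

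Groups follow the sample titles. Differences were tested with edgeR 4.0.16 (quasi-likelihood F test, R 4.3.3, two-sided) on genes kept by filterByExpr with TMM scaling, with Benjamini-Hochberg adjustment over all genes tested and a threshold of 0.05. The comparison with input used all 9 libraries and weighted the 3 guides equally, and comparisons among guides used 6. Every adjusted p is from this test unless DESeq2 1.42.0 is named. Standard errors came from the log2 difference and its F statistic. Replicates differed beyond sampling noise (chi-square per degree of freedom 1.8 to 5.12 on halved counts). To gauge what the test can find, counts were simulated in which 200 genes had a known fold change. Against input, 4% of 1.5-fold, 8% of 2-fold, 86% of 4-fold and 98% of 8-fold changes were recovered, with 3 false calls. For ACTB against non-target guide the shares were 0%, 12%, 62% and 94%, with 9 false calls. A gene without a call may therefore still differ by 2-fold.

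The 9 target genes were all described. Of each further list up to 4 genes past the threshold with the smallest p were named, and all of the paralogue list. Some genes the rule covers are not reported here. The members and lists were chosen with earlier results of these data known. KIF23 had no matching symbol. Alternatives covered scaling, filters, DESeq2, halved counts, thinning to 462026 counts, a table without mitochondrial mRNAs and histone genes, a replicate block, all 9 libraries for the guides, and leaving out each library.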

Additional observations from a re-analysis of the deposited data

How the results depend on the processing

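The inputs limit these comparisons, because a gene at 20 CPM held about 10 counts there and FAS, GDF15 and TP53I3 held 0 to 6 per input. The number of target genes lower than in input was 2 in all alternatives except the left-out libraries, where it ran from 1 to 2, and 0 were higher in all 18. Counts of all genes higher were 1524, or 1005 after thinning to the input depth, which tests fewer genes. Among guides 37 genes of the whole table were called, 19 with a mean of at least 10 CPM, 64 in DESeq2, 22 with all 9 libraries in the fit and 24 to 31 with a library left out; 0 target genes were called in any of the 15 alternatives, in the F test or in pairs. Signs turned for CDKN1A after thinning (-0.13), for BBC3 with a library left out (-0.44 to 0.15), for CDKN1C likewise (-1.28 to 6.34), and for FAS, near 0, under library-size scaling (0.0498), no filter (0.0184), halved counts (0.0103), the replicate block (1.56) and left-out libraries (-0.52 to 1.64); the cause was not tested.

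Replicate numbers did not pair the libraries: correlations of replicate differences between groups ran from -0.0194 to 0.0106. With the replicate block 2 target genes were lower, 0 higher and 0 differed among guides, and 3 further targets fell (6 without it), 3 regulators rose (5) and 0 paralogues fell (1). SESN3 (-0.42, adjusted p = 0.353) lost its call under it. Regulators that fell numbered 5 instead of 3 with median-ratio factors, a mean of at least 10 CPM or DESeq2. Paralogues that fell numbered 2 instead of 1 under those settings and after thinning. After thinning 3 regulators rose instead of 5, and 0 genes of the paralogue list instead of 1, which was RRM1. CDK1 lost its call under library-size scaling (adjusted p = 0.0516, 0 genes of its list lower). RRM2 passed with median-ratio factors (0.0219), a mean of at least 10 CPM (0.0221), DESeq2 (0.0136) and thinning (0.0438). With a library left out, genes that fell numbered 0 to 2 among paralogues and 0 to 1 among T antigen partners, and T antigen partners that rose 2 to 4. GDF15, FAS and TP53I3 could not be fitted under the 10 CPM filter or thinning, and GDF15 none with halved counts.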

Other observations

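Some of the remaining called genes of the p53 lists, named after their values were seen, also went both ways in the FHY1-M3 libraries against input. Their calls were not followed gene by gene under the alternatives. For ZMAT3, TP53INP1 and BCL2L11 the FHY1-M3 and input libraries overlapped. XPC, a sensor of DNA damage in nucleotide excision repair, was higher (log2 1.05, SE 0.29, adjusted p = 0.00934), and DDB2, a sensor in the same pathway, was lower (-0.997, SE 0.28, adjusted p = 0.00857). ZMAT3, an RNA-binding protein induced by p53, was lower (-1.31, SE 0.38, adjusted p = 0.0135). TP53INP1 (-1.53, SE 0.5, adjusted p = 0.0262), RPS27L (-1.38, SE 0.45, adjusted p = 0.0252) and EI24 (-0.73, SE 0.18, adjusted p = 0.00282) were lower as well. Among apoptosis genes BAK1, the pore-forming relative of BAX, was higher (1.25, SE 0.4, adjusted p = 0.0227), while BCL2L11, the BH3-only protein BIM, was lower (-0.98, SE 0.34, adjusted p = 0.0361), and so was DIABLO, which counters XIAP (-2.02, SE 0.6, adjusted p = 0.0148).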
